A study of Sus scrofa with 2 samples.

Results

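A tag is a distinct sequence found among the small RNA reads of pig testis, with the number of reads that had exactly that sequence. The tags described here were shortened at the 3′ end. The tag was identical to the start of the miRNA entry it was assigned to and ended 1 or more bases before that entry did. This rule used sequence and length only, not read counts. It selected 1119 of the 93229 distinct tags of the series: 1066 of 82288 tags at 30 days and 658 of 28643 tags at 180 days, with 605 in both libraries.

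The study compared miRNAs in the whole testis of immature boars, 30 days old, and mature boars, 180 days old, all of the white Chinese breed Junmu-1. Each age is represented by 1 library from the mixed RNA of 3 boars, so there is no spread between animals, no test and no p-value. Every interval below is a 95% interval that covers counting error only, and a difference between libraries may differ from one between ages. Both libraries held miR-202, a miRNA of the gonad, at 68481 RPM (reads scaled to 1000000 listed reads) in the younger and 110872 RPM in the older testis. The miR-34b, miR-34c and miR-449 names, which mark meiotic and later germ cells, summed to 11.4 and 35278 RPM. In whole testis, more cells of a type and more RNA per cell cannot be told apart.

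A miRNA is cut from a hairpin precursor by the enzymes Drosha and Dicer and is loaded into an Argonaute protein. Argonaute holds the 5′ end, which carries the seed that pairs with target mRNAs, and the 3′ end is anchored more loosely and can be shortened by exonucleases or lengthened by added nucleotides. A tag that lacks bases only at its 3′ end therefore keeps the seed of its miRNA.

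The following sequences are entries of 11 of the 12 names with the most shortened reads, printed as in the deposited lists. The remaining name, miR-199, is shown with miR-199a-3p further on. Capitals at bases 2 to 8 mark the seed, and capitals at the 3′ end mark the bases that the most read shortened tag lacked. The let-7 names share the seed GAGGTAG.
let-7f: tGAGGTAGtagattgtatagtT
let-7c: tGAGGTAGtaggttgtatggtT
let-7b: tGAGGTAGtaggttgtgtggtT
let-7: tGAGGTAGtaggttgtatagT
miR-101: gTACAGTActgtgataactgaA
miR-202-5p: tTCCTATGcatatacttcttT
miR-21: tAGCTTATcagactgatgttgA
miR-29a: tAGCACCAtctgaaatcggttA
miR-99a: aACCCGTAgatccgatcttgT
miR-103: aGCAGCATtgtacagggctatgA
miR-222: aGCTACATctggctactgggtctC
In every one of these 11 entries the most read shortened tag lacked exactly 1 base. That base was T in 6 of them, A in miR-101, miR-21, miR-29a and miR-103, and C in miR-222.

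The next entries are shown because their most read shortened tag lacked more than 1 base, with the same use of capitals. The miR-27a and miR-27b entries share the seed TCACAGT and their first 18 bases.
miR-22: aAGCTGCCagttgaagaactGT
miR-27a: tTCACAGTggctaagttcCG
miR-27b: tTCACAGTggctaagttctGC
miR-322: cAGCAGCAattcatgttttgGA
miR-449a: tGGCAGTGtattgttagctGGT
The last set holds miRNAs whose shortened share differed between the libraries. They have different seeds.
miR-504: aGACCCTGgtctgcactctatC
miR-182: tTTGGCAAtggtagaactcacacT
miR-423-5p: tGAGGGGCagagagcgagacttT
miR-28-5p: aAGGAGCTcacagtctattgaG
miR-374: aTATAATAcaacctgctaagtG

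Shortened tags held 602491 of 7525725 listed reads at 30 days, a share of 8.01% (exact Clopper-Pearson interval 7.99 to 8.03%). At 180 days they held 63899 of 852209 reads, or 7.50% (7.44 to 7.55%). Tags identical to the whole entry held 63.6% and 59.4%, and tags with the whole entry followed by further bases held 10.3% and 10.95%. The remaining tags, with a mismatch or another 5′ end, held 18.1% at 30 days and 22.1% at 180 days. Over tags that began at the first base without a mismatch, the shortened share was 9.78% and 9.63%. The difference between the libraries was thus 0.508 points over all reads, beside a larger share of other tags at 180 days.

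Most shortened reads lacked only the last base. Tags missing 1 base held 491128 reads at 30 days and 52919 at 180 days, which was 81.5% and 82.8% of the shortened reads. Tags missing 2 bases held 14.2% and 13.5%, tags missing 3 bases 3.35% and 3.03%, and tags missing 4 bases 0.913% and 0.637%. Tags missing 5 bases held 28 and 6 reads, and no tag missed 6. No listed tag was under 18 bases, so an entry of 22 bases, the length that held 66.0% and 63.2% of the shortened reads, could show at most 4 missing bases. Tags of 21 bases held 54.3% and 50.2% of the shortened reads and tags of 20 bases 28.6% and 34.9%.

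A few tags carried most of these reads. The 5 most read shortened tags held 45.9% of the shortened reads at 30 days and 43.0% at 180 days, and the 10 most read held 60.4% and 61.7%. The median shortened tag had 9 reads at 30 days and 4.5 at 180 days, and 158 and 175 tags rested on 1 read. Thinning the 30-day library to the 180-day total gives an expected 661 shortened tags, beside the 658 observed at 180 days.

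Of 1408 miRNA names, 400 had a shortened tag in either library. The 163 names with 100 or more reads in each library were compared one by one, and 132 of them had shortened reads in both libraries and 24 in neither. The shortened share of a name is its shortened reads as a percentage of all reads given that name. Its median over the 163 names was 7.16% at 30 days (quartiles 2.08 and 17.1%) and 5.22% at 180 days (1.58 and 14.7%). The highest share was that of miR-27a in both libraries, at 65.5% and 58.1%. The share exceeded 20% for 33 names at 30 days and 30 at 180 days, and was under 1% for 37 and 40. Across the 163 names, the shares in the libraries had a Pearson r of 0.961 and a Spearman rho of 0.961, given as a description, since the names share 2 libraries and the same entries.

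The let-7 family, which restrains proliferation and marks differentiated cells, held the most shortened reads. let-7f had 71692 shortened of 377983 reads at 30 days (19.0%, interval 18.8 to 19.1%) and 9962 of 54374 at 180 days (18.3%, 18.0 to 18.6%). let-7c had 78522 of 705643 (11.1%) and 4435 of 38056 (11.7%), and let-7b 70518 of 536473 (13.1%) and 4187 of 36003 (11.6%). These 3 names were within 2 points between the libraries. Lower shares were found under the name let-7, at 2.98% and 3.64%, under let-7d at 3.21% and 3.21%, under let-7e at 4.98% and 5.15%, and under let-7g at 4.31% and 6.89%. In the entries printed above, let-7 has 21 bases and let-7f, let-7c and let-7b have 22.

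To compare 3′ ends whatever entry a tag was given, all tags of 18 or more bases that begin the longest entry were gathered into a ladder of lengths. In the ladders the 22-base tag led for all of let-7, let-7b, let-7c, let-7d, let-7e, let-7f and let-7g. Its share of the ladder was 75.2% at 30 days and 74.5% at 180 days for let-7f, and 79.8% and 76.8% for let-7. The 21-base tag held 19.4% and 18.9% for let-7f and 16.6% and 18.5% for let-7. The distance between let-7f and let-7 was smaller in the ladders, where 24.8% and 25.5% of let-7f reads and 20.2% and 23.2% of let-7 reads were shorter than 22 bases. The 21-base let-7 tag, with 107255 and 11441 reads, counted as full length under its 21-base entry. The 18-base tag of let-7 also begins the let-7c entry and cannot be assigned to either.

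miR-101, which targets the Polycomb enzyme EZH2, had 66900 shortened of 318229 reads at 30 days (21.0%, interval 20.9 to 21.2%) and 6872 of 29613 at 180 days (23.2%, 22.7 to 23.7%). Its tags without and with the last base were nearly equal: 64194 reads of 21 bases and 62312 of 22 bases at 30 days, and 6722 and 6517 at 180 days. Tags of 20 bases had only 611 and 48 reads. The ladder thus ended in adjacent lengths that each held close to the same share, 50.3% and 48.8% at 30 days and 50.5% and 48.9% at 180 days.

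miR-21, a widely expressed miRNA raised in many proliferating tissues, had the highest share among names with 1000 or more reads in each library. It had 35121 shortened of 64589 reads at 30 days (54.4%, interval 54.0 to 54.8%) and 3582 of 7188 at 180 days (49.8%, 48.7 to 51.0%). Its shortened reads came mainly from tags of 2 entries, 1 of 22 bases and 1 of 24. The 21-base tag had 21030 and 1871 reads, the 22-base tag 20254 and 2439, and the 23-base tag, which lacks the last base of the longer entry, 10605 and 1411. The leading length was 21 bases at 30 days (37.2% of the ladder) and 22 bases at 180 days (39.5%).

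miR-202-5p, the gonadal miRNA, had 34770 shortened of 402661 reads at 30 days (8.64%) and 6707 of 77453 at 180 days (8.66%), a difference of 0.0244 points (Newcombe interval -0.190 to 0.242). Its 21-base tag held 88.9% and 89.5% of the ladder. miR-29a, which targets collagen mRNAs, had 9871 of 130594 (7.56%) and 3257 of 32362 (10.1%), higher by 2.51 points at 180 days (2.15 to 2.87). miR-99a, whose family targets mTOR, had 21504 of 631356 (3.41%) and 1969 of 46491 (4.24%). miR-202-5p was the most alike of these 3 between the libraries.

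miR-103, which shares its seed with miR-107, had 15567 shortened of 73110 reads at 30 days (21.3%) and 2344 of 11938 at 180 days (19.6%). All of them were the 22-base tag, which lacks the last A. The 21-base tag had 47602 and 7204 reads, more than the 39449 and 5882 of the 23-base tag, but was listed as a full-length miR-107. miR-222, known to target the cell cycle inhibitor p27, had 11449 shortened of 32342 reads (35.4%) and 408 of 1030 (39.6%, interval 36.6 to 42.7%). Its 24-base tag led at 30 days with 11275 reads beside 8335 of 23 bases, and at 180 days these had 277 and 283 reads.

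Some names had no shortened read because of the entries their tags were given. miR-199a-3p, a miRNA of fibroblasts and other mesenchymal cells, had 456644 reads at 30 days and 33704 at 180 days and none shortened. The exact intervals for its share reached up to 0.000808% and 0.0109%. Its ladder is shown because each length was given another name. The capital marks the last base kept.
22 bases, listed as miR-199a-3p: acagtagtctgcacattggttA
21 bases, listed as full-length miR-199: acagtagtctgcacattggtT
20 bases, listed as shortened miR-199: acagtagtctgcacattggT
19 bases, listed as miR-199*, whose entry starts 1 base earlier: acagtagtctgcacattgG
The 22-base tag had 289719 and 21754 reads, the 21-base tag 240692 and 12467, the 20-base tag 14902 and 544, and the 19-base tag 3937 and 125. In the ladder the 22-base tag held 52.7% at 30 days and 62.3% at 180 days, so 47.3% and 37.7% of its reads were shorter than the longest entry. In all, 10 names with 1000 or more reads in each library had no shortened read. For miR-202, miR-202-3p, miR-1939 and miR-509-3-5p no read was identical to the entry in either library, and for miR-506 only 1 and 2 reads were, so nearly all their tags had a mismatch or another 5′ end and their 3′ ends were not measured by this rule. The other names, miR-101a, miR-199a-3p, miR-23a, miR-30a-5p and miR-30e-5p, had many full-length reads. For miR-23a, which is co-transcribed with miR-27a, tags of 19, 20 and 21 bases held 9.18%, 10.4% and 21.5% of the ladder at 30 days, and all were listed as full length.

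Full-length tags whose entry is itself the start of a longer entry numbered 213 at 30 days and 179 at 180 days, and held 19.9% and 21.3% of all listed reads. Measured against the longest entry of the same name, 18.5% and 18.7% of listed reads were shortened, and against the longest entry of any name 27.9% and 28.8%. The last comparison was added after the data were seen. The 30-day library had the higher share by the entry given and the lower share by the longest entry.

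Among 130 ladders with 100 or more reads in each library, the leading tag was the longest entry in 77 at 30 days and 77 at 180 days. It was 1 base shorter in 29 and 29, and 2 or more bases shorter in 24 and 24. The leading length was the same in both libraries for 119 of the 130. Of these ladders, 48 share their first 18 bases with another, so their shortest tags count in more than 1 of them.

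Some ladders did not thin out evenly toward shorter tags. Of 223 shortened tags with 100 or more reads at 30 days, 53 (23.8%) had more reads than the tag 1 base longer, and of 69 such tags at 180 days, 12 (17.4%) did. Of 63 tags with 100 or more reads in each library, 10 did so in both and 6 in 1 only. Of the 53, 24 lacked 2 or more bases, so that a shorter form led over a form between it and the entry.

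The ladder of miR-22, abundant in muscle and many other tissues, is printed as an example with the last base kept in capitals.
22 bases: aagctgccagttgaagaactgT
21 bases: aagctgccagttgaagaactG
20 bases: aagctgccagttgaagaacT
19 bases: aagctgccagttgaagaaC
The 22-base tag had 9179 reads at 30 days and 1889 at 180 days. The 21-base tag had 414 and 61, and the 20-base tag 2976 and 504. The 19-base tag had 201 and 45. Both libraries thus had peaks at 22 and 20 bases, and the name's shortened share was 23.9% and 20.5%.

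The miR-27 names had the same kind of ladder. For miR-27b, the tag of 21 bases had 5705 and 500 reads, that of 20 bases 760 and 46, and that of 19 bases 4450 and 216. The last base kept is again in capitals.
21 bases: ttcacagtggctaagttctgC
20 bases: ttcacagtggctaagttctG
19 bases: ttcacagtggctaagttcT
18 bases, shared with miR-27a: ttcacagtggctaagttC
The 18-base tag had 5717 and 289 reads and was listed under miR-27a, where it made up most of the shortened reads. It begins the miR-27b entry as well, so the 65.5% and 58.1% of miR-27a are not its own alone. The miR-27a tag of 19 bases, which differs from that of miR-27b in its last base, had 208 and 6 reads, beside 1917 and 118 of the full 20 bases.

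miR-322, of the miR-15 and miR-16 seed family, had nearly no read of its full entry. Its ladder shares its first 18 bases with 1 other ladder, so its shorter tags may not name miR-322 alone. Its 22-base entry had 1 read at 30 days and 0 at 180 days, and its 20-base tag had 3202 and 244. The name held 3742 shortened of 18785 reads (19.9%) and 283 of 1668 (17.0%), since most of its reads were in tags with a mismatch or another end.

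The germ-cell miRNAs could be described at 180 days only. miR-449a, which shares the seed GGCAGTG with miR-34c, had 961 shortened of 6056 reads at 180 days (15.9%, interval 15.0 to 16.8%) and 3 of 19 at 30 days. Its 22-base tag had 3298 reads, the 21-base tag 260, the 20-base tag 145, the 19-base tag 451 and the 18-base tag 105. It thus had a peak at 19 bases, 3 short of the entry. miR-34c had 627 of 19274 reads shortened (3.25%, 3.01 to 3.51%) and miR-34b 206 of 684 (30.1%, 26.7 to 33.7%). The 23-base tag held 82.7% of the miR-34c ladder and 86.0% of the miR-34b ladder. Members that share a seed therefore differed widely in the shortened share by name and less in their ladders.

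Bases lost and kept were described over reads. The lost stretch was T alone for 52.4% of shortened reads at 30 days and 50.3% at 180 days, A alone for 21.5% and 24.5%, and TT for 5.91% and 6.37%. Full-length tags ended in T for 64.9% and 63.2% of their reads. Shortened reads as a share of shortened plus full-length reads were 12.7% and 13.8% for entries ending in A, 14.6% and 8.22% for C, 7.23% and 8.34% for G, and 11.06% and 11.03% for T. By the median over names the order was different: 26.4% and 25.3% for G, 27.5% and 12.7% for C, 15.6% and 6.74% for A, and 11.7% and 7.14% for T. These medians were over names with 100 or more reads in the library in question. They rested on 65 and 34 names for G, 39 and 24 for C, 51 and 30 for A, and 107 and 67 for T. The medians of the libraries are therefore not over the same names. No order of the last bases held over both measures.

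Among the 53 tags at 30 days that had more reads than the tag 1 base longer, the last base kept was T in 27, against 55 of the other 170. The first base lost was T in 12 of the 53 and in 72 of the 170. At 180 days the last base kept was T in 7 of 12 and 18 of 57. These are counts of tags, and tags of 1 miRNA share their sequence.

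Hairpin arms could be read only from names ending in -5p or -3p. All -5p names together, 15 of them measured, had 8.96% of their reads shortened at 30 days and 7.35% at 180 days. All -3p names together, 10 of them measured, had 1.53% and 1.59%. Most -3p reads were miR-199a-3p and most -5p reads miR-202-5p. Without miR-199a-3p and miR-202-5p the shares were 9.84% and 3.52% for -5p and 11.6% and 7.08% for -3p. Over all names, those with few reads included, the order of the arms thus turned.

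Lists of related miRNAs are given by their pooled share, beside the 8.01% and 7.50% of all listed reads. At 30 days 11 of 22 lists were above the library, and at 180 days 12 were. The let-7 family had 9.21% shortened at 30 days and 9.35% at 180 days. The miR-99 and miR-100 list, of the same cluster on the genome as some let-7 genes, had 3.21% and 3.65%. The miR-125 list, also of that cluster, had 18.5% and 13.8%. Names that can come from 1 transcript thus differed in their shares by the entry given. In the ladders, 42.1% and 48.0% of miR-99a reads were shorter than the longest entry, beside 26.6% and 19.6% for miR-125b-5p. For let-7c these were 14.2% and 15.4%, and for let-7e 33.6% and 33.5%. The order of the pooled lists therefore does not hold for these ladders.

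The pooled share was lower at 180 days in 14 of the 22 lists and higher in 8, and the median over measured names was lower in 12 of 21 and higher in 8. A pooled share also moves with the mix of names in a list, so both are given. The miR-181 list had 20.4% and 12.9% pooled (medians 17.4% and 10.8%), and the miR-17-92 family, which drives cell division, 13.04% and 10.6% (8.99% and 7.58%). In these lists both measures were lower at 180 days. The miR-143 and miR-145 list of smooth muscle had 16.4% and 9.52% (14.6% and 11.5%), but miR-145 itself had 9.96% and 13.97%, a difference of 4.01 points (2.34 to 5.76).

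In other lists the measures went opposite ways. The miR-23, miR-24 and miR-27 list had 17.9% and 9.91% pooled but medians of 9.38% and 13.1%. In it miR-24 had 8.54% and 12.7%, and miR-27a held 9049 of 79535 reads at 30 days and 508 of 8759 at 180 days. The miR-15 and miR-16 family had 6.75% and 5.44% (medians 3.999% and 4.63%), and the miR-148 and miR-152 list 10.1% and 9.40% (14.4% and 14.5%). The lists on miR-101 (18.2% and 19.2%) and on miR-103 and miR-107 (12.04% and 12.07%) were at a like pooled level in both libraries.

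Lists with low pooled shares were those on miR-140, a miRNA of cartilage (0.381% and 0.370%), miR-26 (1.76% and 1.44%), and miR-199 and miR-214 (2.62% and 1.51%). These shares depend on the entries given. In the ladders, 49.0% and 47.9% of miR-140* reads were shorter than the longest entry. For miR-199a-3p these were 47.3% and 37.7%, for miR-26a 11.5% and 10.2%, and for miR-10b 92.7% and 92.4%. In the miR-140 ladder the longest tag held 94.6% and 97.6%. The miR-10 list had 3.52% and 2.56%, the miR-30 list 4.58% and 4.11%, and the miR-202 list 6.83% and 7.20%. The miR-29 list had 7.20% and 9.41%. For miR-34 and miR-449 the 30-day value, 9.15%, rested on 142 reads, beside 6.23% at 180 days. In the measured names of the miR-506 to miR-514 list, an X-linked cluster of the testis, only 8 of 47598 reads at 30 days and 5 of 15602 at 180 days began at the first base of their entry without a mismatch. Its shortened share, 0.0105% and 0.0128%, therefore does not describe its 3′ ends.

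Other lists were set by how a miRNA is made or removed. miR-451, a miRNA of red blood cells, is cut by Argonaute itself rather than Dicer and then trimmed by an exonuclease. It had 678 shortened of 11552 reads at 30 days (5.87%, interval 5.45 to 6.31%) and 299 of 3216 at 180 days (9.30%, 8.32 to 10.4%). Its ladder led at 23 bases at 30 days (50.4%) and at 22 bases at 180 days (45.6%). miRNAs known from other systems to be removed after pairing with extensively matching targets, a process that can shorten or extend the 3′ end (miR-7, miR-16, miR-27, miR-29b, miR-30b and miR-30c), had 26.5% and 10.2% shortened when pooled. The medians over its 8 measured names were 10.6% and 3.73%, and the median difference was -1.54 points. miR-16, with 0.0962% and 0% shortened, held 16627 of the list's 46505 reads at 30 days and 4203 of 7340 at 180 days. In its ladder, 9.71% and 7.77% of reads were shorter than the longest entry. Among the names, miR-27b and miR-30b were past the rule of the next paragraph, and the 18-base tag shared by miR-27a and miR-27b counts in it.

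A shortened share was called different between the libraries when it changed by 10 percentage points or more and the Newcombe interval excluded 0. Of the 163 names, 9 (5.52%) were lower at 180 days and 1 (0.613%) was higher. Without regard to size, 95 were lower and 44 higher, and the interval excluded 0 for 47 lower and 14 higher. For 136 names the whole interval lay within 10 points. All 10 called names had under 1000 reads at 180 days, and among the 63 names with 1000 or more reads in each library none was called.

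miR-504, which targets p53, had 1169 shortened of 2460 reads at 30 days (47.5%) and 39 of 140 at 180 days (27.9%), a difference of -19.7 points (interval -26.7 to -11.5). Its leading tag was the 21-base one at 30 days, with 1146 reads beside 660 of 22 bases, and the 22-base one at 180 days, with 61 reads beside 37. miR-182, of the miR-183 cluster, had 111 of 333 (33.3%) and 63 of 392 (16.1%), a difference of -17.3 points (-23.4 to -11.0). When only its tags that began at the first base without a mismatch were counted, the direction turned, to 6.35 points higher at 180 days. The difference for miR-182 thus depends on how tags with a mismatch or another 5′ end are counted.

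miR-143*, the less abundant arm of a smooth muscle miRNA, had 2212 of 3770 reads shortened (58.7%) and 199 of 476 (41.8%), a difference of -16.9 points (-21.5 to -12.1). Over tags that began at the first base without a mismatch the difference was -5.55 points and the call was lost. In its ladder the 19-base tag led in both libraries, with 44.8% and 51.6%, and the mean length was 19.9 and 19.9 bases. The smooth muscle names miR-143 and miR-145 summed to 6581 RPM in the younger and 17994 RPM in the older testis, and the part of cell makeup in these shares was not tested. miR-30b had 100 of 622 (16.1%) and 6 of 235 (2.55%), a difference of -13.5 points (-16.9 to -9.57). Nearly all of its shortened reads at 30 days were 1 tag of 18 bases, with 96 reads, beside 3 at 180 days. That tag also begins entries that go on with other bases, so it does not name miR-30b alone. The difference was -4.33 points with entries grouped by their first 18 bases and -9.69 with the longest entry, so the call was lost.

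miR-423-5p had reads at each length from 19 to 23 bases. Its 23-base tag had 5155 reads at 30 days and 539 at 180 days, the 22-base tag 975 and 49, the 21-base tag 497 and 16, the 20-base tag 403 and 14, and the 19-base tag 484 and 9. Each shorter length thus held a smaller part at 180 days, and the entry's own length held 68.6% and 86.0% of the ladder. The shortened share was 22.9% and 9.62%, a difference of -13.2 points (-15.2 to -11.0).

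The other lower names were miR-345-3p (33.0% and 21.6%), miR-216b (40.4% and 29.6%), miR-27b (38.5% and 27.9%) and miR-28-5p (62.1% and 51.8%). Against the longest entry of its name, the difference of miR-27b was 0.606 points higher at 180 days in place of -10.6. The name higher at 180 days was miR-374, an X-linked miRNA, with 201 of 1673 (12.01%) and 68 of 307 (22.1%), a difference of 10.1 points (5.55 to 15.3). Its 21-base tag, lacking the last G, had 184 and 65 reads, beside 1126 and 162 of 22 bases. Just outside the rule were miR-181a at -8.41 points and miR-339 at -8.06.

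Ladder lengths, which need no name, were compared as well, a comparison added after the data were seen. The mean tag length was longer at 180 days in 84 of the 130 ladders and shorter in 45, with a median difference of 0.0213 bases. The normal 95% interval over reads excluded 0 for 53 longer and 21 shorter ladders. Ladders that differed by 0.25 bases or more numbered 13, and all 13 were longer at 180 days. The extremes of the 130 were miR-17-5p, of the cluster that drives cell division, at 22.1 and 22.8 bases, and miR-107, outside the 13, at 21.4 and 21.2. The 21-base tag held 66.2% and 82.5% of the miR-107 ladder. It also led the miR-103 ladder, so it does not name miR-107 alone. Others among the 13 were miR-30b (21.2 and 21.8), miR-181b (22.3 and 22.7), miR-423-5p (22.3 and 22.7) and miR-20a (22.3 and 22.6). The miR-30b ladder, of 509 and 173 reads, includes the 18-base tag with 96 and 3 reads that does not name miR-30b alone. The 30-day library had 8.83 times the listed reads of the 180-day one.

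Levels of single shortened tags were compared in RPM for tags with 100 or more reads over both libraries, and called at a ratio of 2 or more, or 0.5 or less, with the exact conditional interval excluding 1. Of all 2262 such tags, 380 (16.8%) were higher and 465 (20.6%) lower at 180 days. Of the 242 shortened ones, 26 (10.7%) were higher and 72 (29.8%) lower, and their median log2 ratio was -0.47, beside -0.09 for all tags and 0.11 for full-length tags. The 30-day library had 8.83 times the listed reads, so a tag could pass the minimum at a lower RPM through that library. Tags high only at 30 days were thus admitted more easily than tags high only at 180 days, whatever their class. Median-of-ratios scaling moved every log2 ratio by -1.14, and by it 11 shortened tags were higher and 164 lower, beside 91 and 1317 of all tags. The ratio of a tag's level holds both the level of its miRNA and its shortened share, and these were not separated.

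The highest ratios belonged to germ-cell names. The 19-base tag of miR-449a had 1 read at 30 days and 451 at 180 days, and its 21-base tag 2 and 260. The 21-base tag of miR-34c had 2 and 422. Tags at 0 reads at 30 days were bounded with 3 reads, and were at least 427-fold higher for miR-449a at 20 bases, at least 344-fold for miR-34c at 20 bases, and at least 309-fold for miR-449a at 18 bases. All 3 were of the germ-cell list, whose miRNAs were near 0 in the younger testis in every form.

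Next in ratio came tags of several miRNAs. The 22-base tag of miR-192 had 186 and 205 reads, a ratio of 9.73 (interval 7.94 to 11.9), and the 23-base tag of miR-182 one of 6.71 (4.71 to 9.50). miR-145 had a ratio of 5.47 (4.64 to 6.43) for its 21-base tag, miR-1 of striated muscle 5.45 (4.49 to 6.59), miR-451 of red blood cells 4.34 (3.71 to 5.06), miR-193b 4.15 (3.28 to 5.23), miR-100 3.45 (3.01 to 3.94) and miR-29a 2.97 (2.85 to 3.10). The other higher tags, of miR-374, miR-146b, miR-95, miR-30a, miR-16b, miR-99b and further lengths of these names, had ratios from 2.06 to 5.50. The summed levels of the marker names moved too: striated muscle from 1434 to 6562 RPM, red blood cells from 1742 to 3933, endothelium from 381 to 629, liver from 21.3 to 218, and white blood cells from 186 to 214. Most of the striated muscle sum was miR-1, at 1305 and 6399 RPM, whereas miR-206 was at 121 and 123. Most of the red blood cell sum was miR-451, at 1535 and 3774 RPM. These 2 sums thus mainly follow 1 name each. The part of the marker levels in the tag ratios was not tested.

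Lower tags were led in reads by the 21-base tag of let-7c, with 70395 and 3843 reads and a ratio of 0.482 (0.467 to 0.498). The 20-base tag of miR-199 had 14902 and 544 reads (0.322, 0.295 to 0.351), the 23-base tag of miR-222 8335 and 283 (0.300, 0.265 to 0.338) and the 22-base tag of miR-708 5446 and 168 (0.272, 0.232 to 0.318). For let-7c, the 22-base tag was lower as well, with 494998 and 25234 reads, and the shortened share of the name was 11.1% and 11.7%. The level of let-7c was thus lower at 180 days in both forms.

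Some shortened tags do not name 1 miRNA. At 30 days 151 tags with 13.9% of the shortened reads, and at 180 days 96 tags with 15.9%, also began an entry of another name. For 88 and 52 of them, with 4.38% and 4.41% of the shortened reads, that other entry went on with different bases, as for miR-27a and miR-27b.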

How the data were processed

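Small RNA of whole testis, pooled from 3 boars per age, was cut from a gel at about 18 to 30 nucleotides and amplified with 15 PCR cycles, per the labels' protocols. No molecular identifiers are named, so reads are not independent molecules. Per library, the authors deposited distinct tags with raw read counts, the tag and entry lengths and matched bases (other columns), 1 miRNA entry of any species per tag, and a score of the alignment. For the aligner, genome build and miRBase release the sources used here give no name. Counts were used as deposited, and the score was not used further.

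A tag was shortened when the entry began with it and was longer, with names taken without the species prefix. Shares have exact Clopper-Pearson 95% intervals, differences Newcombe intervals and RPM ratios exact conditional intervals. The precision of an interval follows the reads it rests on. These were the 2 library totals, 7525725 and 852209 listed reads, for library shares, and the reads of a name for its share. RPM are reads scaled to a listed total of 1000000. The miRNAs named were the 12 with the most shortened reads, the 6 highest and 6 lowest shares (with ties) among names with 1000 or more reads in each library, up to 5 differences in each direction, and up to 2 per list. Others (miR-27a, miR-322, miR-34b, miR-192, miR-193b, miR-1, miR-708, miR-17-5p, miR-20a, let-7d, let-7e, let-7g, miR-345-3p, miR-216b, miR-28-5p and miR-339) were chosen after their values were seen. The members and lists were chosen with earlier results of these data known. Alternatives are given in the closing section. Calculations used Python 3.11.15 with pandas 2.3.3, numpy 2.4.6 and scipy 1.17.1. The classing of tags and the rule for differences of shares were tested on simulated data. The simulated shares were above most of the measured ones and the planted changes were all increases. Low shares and decreases were therefore not covered by that check.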

Additional observations from a re-analysis of the deposited data

How the results depend on the processing

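No paired analysis was possible because each age had 1 library and the libraries carry no replicate number. Arms from RefSeq hairpins were not run, since no hairpin table was used here. The entry chosen for a tag mattered most. The library share, 8.01% at 30 days and 7.50% at 180 days, became 18.5% and 18.7% with the longest entry of the same name, 27.9% and 28.8% with the longest of any name, and 13.6% and 12.6% with the end of the most read tag. It became 9.78% and 9.63% over tags that begin at the first base without a mismatch, 8.05% and 7.63% without tags of 1 read, 6.97% and 6.39% without tags that begin an entry of another name, 8.59% and 7.90% without the most read name, and 7.16% and 5.22% as a median over names. With mammalian entries only it was 8.14% at 30 days. The median per name became 6.54% at 30 days without tags of 1 read, 10.3% and 8.21% over tags that begin at the first base, 7.63% and 5.42% with entries grouped by their first 18 bases, 15.9% and 14.4% with the longest entry of the same name, and 18.4% and 15.0% with that of any name. Names called higher at 180 days numbered 1, and 2 at a minimum of 20 reads, over tags that begin at the first base and with either longest entry, and 0 at 1000 reads or 20 points. Names called lower numbered 9, and 16 at 20 reads, 22 at 5 points, and 0 at 1000 reads or 20 points. Of 48 alternative values for the 10 called miRNAs, 39 kept direction and call, 6 lost the call (miR-143*, at -5.55, over tags that begin at the first base; miR-27b, at -9.77, and miR-345-3p, at -9.95, without tags of 1 read; miR-30b, at -4.33, with entries grouped and, at -9.69, with either longest entry) and 3 turned: miR-182 to 6.35 points over tags that begin at the first base, and miR-27b to 0.606 with either longest entry. Shortened tags called higher were 26 of 242 (10.7%, beside 16.8% of all tags), and 11 (4.55%, beside 4.02%) with median-of-ratios scaling. They were 52 of 440 (11.8%, beside 17.1%) at 20 reads and 3 of 69 (4.35%, beside 13.4%) at 1000 reads. Those called lower were 72 (29.8%, beside 20.6%), and 164 (67.8%, beside 58.2%) with that scaling. They were 94 (21.4%, beside 10.5%) at 20 reads and 22 (31.9%, beside 17.8%) at 1000 reads. At 20 reads all tags were more often higher than lower, unlike at 100 reads. By the last base of the entry (30 days, then 180 days), the longest entry of the same name gave 23.9% and 24.7% for A, 32.6% and 28.0% for C, 47.1% and 53.5% for G, and 20.8% and 23.7% for T. The median over names gave 15.6% and 6.74% for A and 27.5% and 12.7% for C. It gave 26.4% and 25.3% for G and 11.7% and 7.14% for T, over different sets of names in each library. By arm, that median was 7.16% at 30 days for -5p, and 12.8% and 9.15% for -3p. The 180-day depth limits names with few reads: all called names had under 1000 there.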
